A study of Mus musculus with 13 samples.

Results

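The 10 genes described here are the NF-κB subunits and their inhibitors: Nfkb1, Rela, Rel, Nfkb2 and Relb encode the subunits, Nfkbia and Nfkbie encode cytoplasmic inhibitors, Nfkbid and Bcl3 encode nuclear IκB proteins, and Tnfaip3 encodes the ubiquitin-editing enzyme A20. They were chosen by name, from 35906 genes in the files, and all 10 passed the filter on low counts. RNA had been sequenced from M2 CD4 single-positive (CD4SP) thymocytes, the most mature thymic CD4 T cells, sorted as CD69- MHCI+, with 1 library per mouse and 13 libraries in all. All mice carried the transgenic Lm54 TCR on a Rag1-/- background, so that every T cell had the same receptor. The study's methods give an age of 8 to 12 weeks for phenotypic analyses, unless stated otherwise, and none for the RNA sequencing itself. In CtslΔTEC mice a Foxn1-cre transgene deletes the protease cathepsin L (CTSL) from thymic epithelial cells, which leaves the thymocytes themselves undeleted, and controls are labelled Ctsl fl/fl (WT). Unstimulated cells came from 5 CtslΔTEC mice (mice 1 to 5) and 4 Ctsl fl/fl mice (mice 1 to 4). Cells from 2 further CtslΔTEC mice (mice 6 and 7) and 2 further Ctsl fl/fl mice (mice 5 and 6) were cultured for 4 h on plate-bound LLO:Iab monomer, the peptide:MHC ligand of the receptor, at 1 µg/ml, with soluble anti-CD28 at 250 ng/ml.

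NF-κB proteins are dimers of 5 related subunits. In a resting T cell most dimers are held in the cytoplasm by IκB proteins such as IκBα (Nfkbia) and IκBε (Nfkbie). T cell receptor and CD28 signals, relayed by PKCθ, BCL10 and MALT1, lead the IκB kinase to mark these inhibitors for destruction, and freed RELA and c-REL dimers enter the nucleus. The alternative arm processes the p100 product of Nfkb2 to p52, which pairs with RELB. Several genes of the system are themselves NF-κB targets, among them Nfkbia and Tnfaip3, whose products end the response, and c-REL is the subunit most closely tied to Il2 transcription in T cells.

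The genes lie on 7 chromosomes of GRCm38 (GENCODE M21). Relb (chr7:19606217-19629438) and Bcl3 (chr7:19808462-19822770) are close neighbours on the minus strand of chromosome 7, which also holds Nfkbid (chr7:30421732-30428746, plus strand). Nfkb2 (chr19:46304320-46312385) and Rela (chr19:5637483-5648130) are both on the plus strand of chromosome 19. Nfkb1 is at chr3:135584655-135691547, Rel at chr11:23736847-23770970, Nfkbia at chr12:55489410-55492647, Nfkbie at chr17:45555703-45563169 and Tnfaip3 at chr10:19000910-19015657. RefSeq promoters (GRCm38.p6, 250 bases before to 50 after a start) were at hand for 8 of the 10 genes, 13 promoters in all, and not for Nfkb1 and Relb. They were searched on both strands for the κB consensus, by its standard definition of 10 letters, and for the shorter motif GGGNNTTTC, which overlaps the consensus in part. The consensus was found in 9 of the 13 promoters and in 7 of the 8 genes, all but Rela, against 8.46% of 32851 RefSeq promoters of the same length. GGGNNTTTC was found in 7 of the 13 promoters and in 5 genes, including Rela, against 4.36% of all promoters. These are matches of letters and not measured binding.

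Stretches before the start are shown for the genes on which the results below turn, and for Rela, whose promoter held only the shorter motif. They lie in no annotated exon and are written 5′ to 3′ on the strand of the gene, with every match to either motif in capitals.
Nfkbia, chr12:55492657-55492806, minus strand: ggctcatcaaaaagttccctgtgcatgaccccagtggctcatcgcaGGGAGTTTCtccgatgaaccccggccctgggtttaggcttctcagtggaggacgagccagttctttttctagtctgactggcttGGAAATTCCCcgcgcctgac
Nfkbie, chr17:45555502-45555651, plus strand: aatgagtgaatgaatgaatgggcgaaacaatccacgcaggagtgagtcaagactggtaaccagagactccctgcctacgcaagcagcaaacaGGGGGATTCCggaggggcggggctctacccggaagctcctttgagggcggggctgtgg
Rel, chr11:23771011-23771160, minus strand: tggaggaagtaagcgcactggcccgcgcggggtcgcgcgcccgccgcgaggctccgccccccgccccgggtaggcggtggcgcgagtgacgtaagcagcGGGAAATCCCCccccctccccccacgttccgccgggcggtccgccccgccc
Tnfaip3, chr10:19015411-19015547, minus strand: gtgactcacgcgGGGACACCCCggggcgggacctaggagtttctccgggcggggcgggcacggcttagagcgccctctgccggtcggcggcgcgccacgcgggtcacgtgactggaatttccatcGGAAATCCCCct
Nfkbid, second of its 3 promoters, chr7:30422168-30422317, plus strand, in an intron of the longer transcript: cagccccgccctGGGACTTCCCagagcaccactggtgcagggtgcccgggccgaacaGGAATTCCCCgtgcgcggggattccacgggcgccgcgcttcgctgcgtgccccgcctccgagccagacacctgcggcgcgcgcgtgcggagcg
Rela, chr19:5637318-5637467, plus strand: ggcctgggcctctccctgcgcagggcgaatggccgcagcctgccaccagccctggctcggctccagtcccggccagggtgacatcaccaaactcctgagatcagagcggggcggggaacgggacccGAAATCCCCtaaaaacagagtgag

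In Bcl3 the match, GGGAAGTCCC, began 3 bases into the transcript, and in Nfkb2 GGGAATTCCC and GGGGCTTTCC began 39 and 11 bases before the first of its 3 RefSeq starts, with further matches at the others. The Rel and Tnfaip3 promoters both held the letters GGGGATTTCC on the strand opposite to the gene, and the capitals in the Rela stretch are the first 9 of these letters read on the other strand.

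The libraries held 25692380 to 39127833 estimated counts in unstimulated cells and 8085463 to 27184520 in stimulated cells, the fewest in Ctsl fl/fl mouse 5. Cd4, Cd3e and the other mature CD4 T cell markers summed to between 6082 and 8466 CPM (counts scaled to a common library size by TMM). Foxn1, Krt5, Krt8, Pax5, Cd14, Ncr1 and Klrb1c, defining markers of epithelial, B, myeloid and NK cells, had at most 3 counts in every library. Other markers on these lists were present: the summed epithelial list was at 2.86 to 5.37 CPM at rest and 11.3 to 15.8 CPM after stimulation, the myeloid list at 7.22 to 24.6 CPM, and the B cell list at 0.812 to 2.46 CPM. Erythroid markers, mostly globins, summed to 42.5 to 171 CPM at rest and 2.71 to 18.6 CPM after stimulation. The file names carry 3 dates. All stimulated libraries bear the third date, and of the unstimulated ones Ctsl fl/fl mouse 4 and CtslΔTEC mice 1 and 3 bear the first. Stimulation can therefore not be told apart from date, from the culture itself or from the difference between mice. In bulk RNA, fewer cells of a type and less RNA per cell cannot be told apart.

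The first question was how much of each gene resting cells contained, for which length-corrected values (TPM, a level corrected for transcript length and library size) allow genes to be set side by side. In unstimulated Ctsl fl/fl cells Nfkbia led with 118 ± 33.7 TPM (SD, n = 4), followed by Nfkb1 with 88.9 ± 3.12 and Rela with 75.5 ± 6.51. Nfkbid was at 34.5 ± 2.02 and Tnfaip3 at 26.0 ± 16.1 TPM, and the ranges of these neighbours overlapped. Relb (14.5 ± 1.04), Nfkb2 (13.4 ± 0.571), Rel (11.1 ± 1.61) and Nfkbie (10.2 ± 1.09) formed a low group in which only Nfkb2 and Rel, among adjacent genes, did not overlap. Bcl3 was lowest, at 3.22 ± 0.522 TPM. The order in CtslΔTEC cells was the same down to Tnfaip3. Nfkb1 and Rela, the genes of the classical p50 and RELA dimer, thus made up most of the subunit transcripts at rest. Of the summed TPM of the 5 subunits, Nfkb1 took 43.7% ± 0.686 and Rela 37.1% ± 1.89 in Ctsl fl/fl cells, and 41.8% ± 3.01 and 37.1% ± 3.20 in CtslΔTEC cells.

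**Figure D1:**
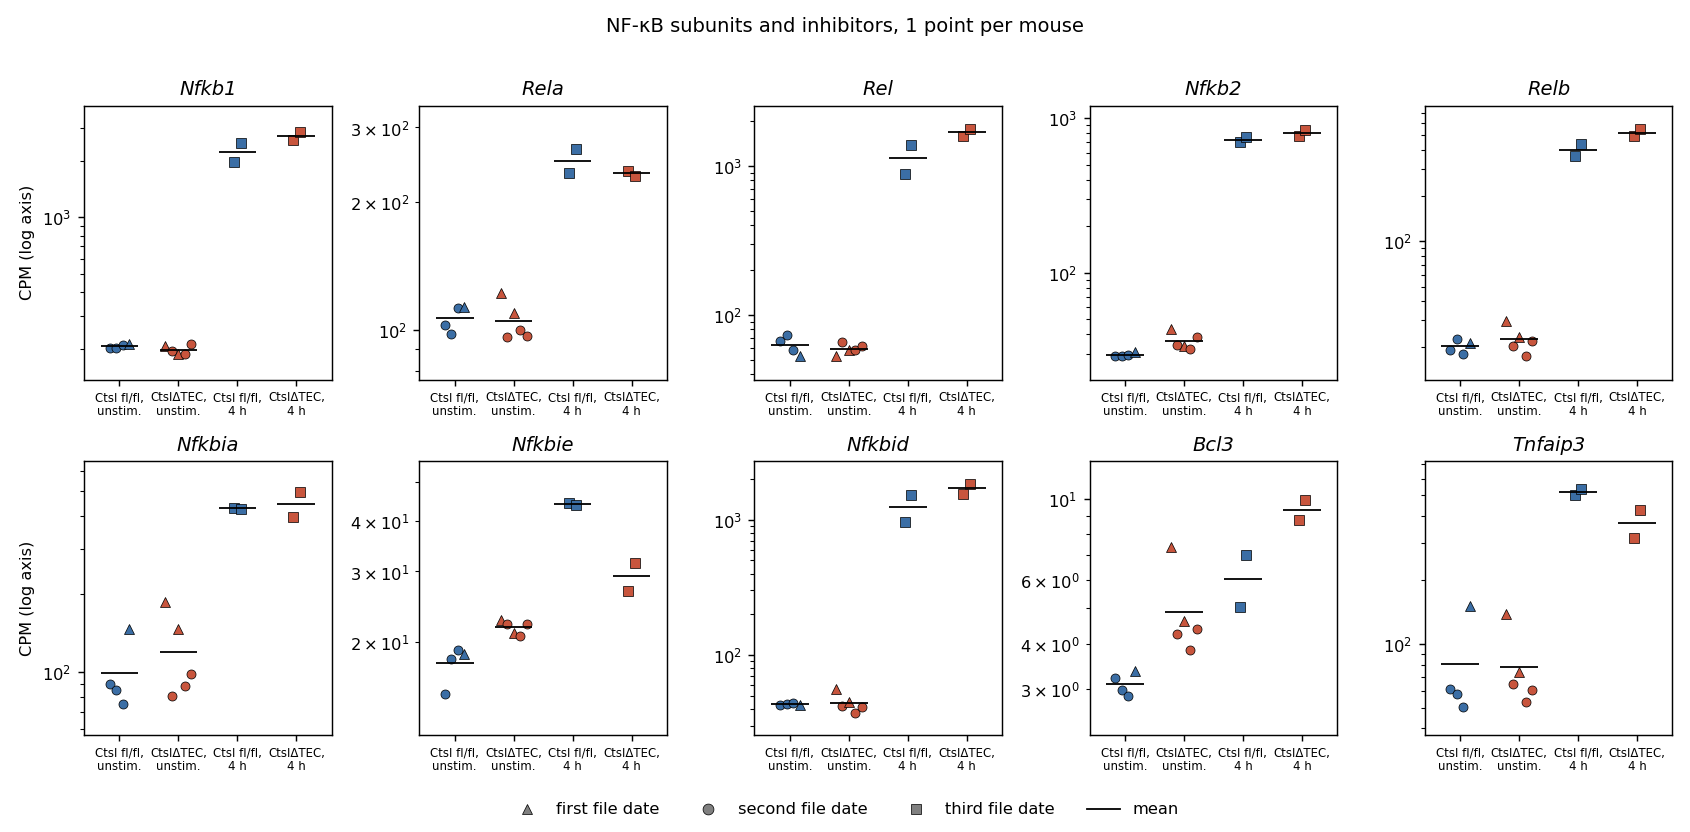
Levels of the 10 genes in CPM on log axes, with 1 point per mouse, a line at each group mean and the point shape giving the file date. All 10 genes are higher in the 4 h groups, and Nfkbie after 4 h is at 44.5 and 43.8 CPM in Ctsl fl/fl against 26.9 and 31.5 CPM in CtslΔTEC cells.

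The second question was whether resting cells selected without CTSL in the epithelium differed. Nfkbie, Nfkb2 and Bcl3 were higher in CtslΔTEC cells, by between 1.23 and 1.58 times, and the other 7 genes did not pass the threshold of an adjusted p under 0.1. That is 3 of 10 genes, where 14.8% of the 13152 genes tested passed in either direction. The median log2 fold change, CtslΔTEC over Ctsl fl/fl, was 0.10 for the 10 genes and 0.01 for all genes tested.

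Nfkbie, whose product IκBε retains RELA and c-REL dimers, was at 14.9, 18.2, 19.1 and 18.7 CPM in Ctsl fl/fl mice 1 to 4, and at 22.7, 22.2, 21.1, 20.8 and 22.2 CPM in CtslΔTEC mice 1 to 5. The lowest CtslΔTEC mouse lay above the highest control, and the CtslΔTEC mice were the more uniform. On the log2 scale the difference was 0.30 ± 0.08 (standard error; edgeR's quasi-likelihood test, adjusted p = 0.0418), and the two-sided exact permutation test on log2 CPM gave p = 0.00794, the smallest that 5 mice against 4 allow. Nfkb2, which encodes p100 and p52, was at 28.9, 29.1, 29.4 and 30.8 CPM in the controls and at 43.4, 34.1, 33.7, 31.9 and 38.2 CPM in CtslΔTEC mice. The controls were nearly identical and again lay below every CtslΔTEC mouse, of which mouse 1 was highest. It was higher by 0.30 ± 0.09 on the log2 scale (edgeR, adjusted p = 0.0635; exact permutation p = 0.0159). Bcl3, a nuclear IκB protein that binds p50 and p52 dimers, was at 3.22, 2.98, 2.86 and 3.36 CPM in the controls and at 7.36, 4.25, 4.62, 3.84 and 4.39 CPM in CtslΔTEC mice. Groups did not overlap, and CtslΔTEC mouse 1 stood apart. It was higher by 0.66 ± 0.19 on the log2 scale (edgeR, adjusted p = 0.0531; exact permutation p = 0.0159), and within the second date it was 0.46 (adjusted p = 0.113). Antisense noncoding genes of the annotation overlap Bcl3 and Nfkb2 and are not among the quantified transcripts, and the strand setting of the counting is not given in the sources used here, so reads of these genes cannot be told from theirs.

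The 3 calls were sensitive to which mice and covariates entered. Without Ctsl fl/fl mouse 1, 2 or 3 only Nfkbie passed, and counting protein-coding transcripts alone left its log2 difference at 0.29 with an adjusted p of 0.157. Y-linked transcripts were present in all 5 CtslΔTEC mice but in only 1 of the 4 controls, and with their level as a covariate none of the 10 genes passed (edgeR; log2 fold changes of 0.20 for Nfkbie, 0.33 for Nfkb2 and 0.83 for Bcl3). Transcripts with a retained intron made up 5.13 to 5.77% of counts in controls and 5.59 to 6.59% in CtslΔTEC mice, and with that share as a covariate all 3 calls were lost too, with log2 differences of 0.27 for Nfkbie, 0.22 for Nfkb2 and 0.52 for Bcl3 (edgeR, adjusted p of 0.356, 0.531 and 0.466). Over all genes calls fell as well, from 1943 of 13152 to 429 with the Y-linked level and 689 with the retained-intron share. Other marker lists moved with genotype in the same libraries. The 7 markers of double-positive thymocytes, Cd8a and Ptcra among them, summed to 49.5 to 73.6 CPM in controls and 219 to 292 CPM in CtslΔTEC mice, and the 4 regulatory T cell markers, which include Il2ra, to 9.07 to 15.7 and 19.9 to 24.2 CPM. The 5 NK and innate markers summed to 5.36 to 6.84 CPM in controls and 2.45 to 4.50 CPM in CtslΔTEC mice, and the 6 epithelial markers to 2.86 to 3.44 and 3.57 to 5.37 CPM. The 12 mature CD4 T cell markers summed to 7815 to 8466 CPM in controls and 6833 to 7384 CPM in CtslΔTEC mice. Their part in the result was not tested.

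Nfkb1, Rela and Rel, the genes of the subunits that carry the classical response, had log2 fold changes of −0.06, −0.02 and −0.08 at rest, with standard errors of 0.06, 0.08 and 0.10. Relb was at 0.16 (standard error 0.14) and Nfkbid at 0.04 (standard error 0.10). Groups overlapped for each of these 5 genes, with exact permutation p between 0.167 and 0.881. Nfkbia (0.27, standard error 0.26) and Tnfaip3 (−0.04, standard error 0.35) were measured least precisely, so that a difference of the size seen in Nfkb2 was not detectable in them.

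**Figure D2:**
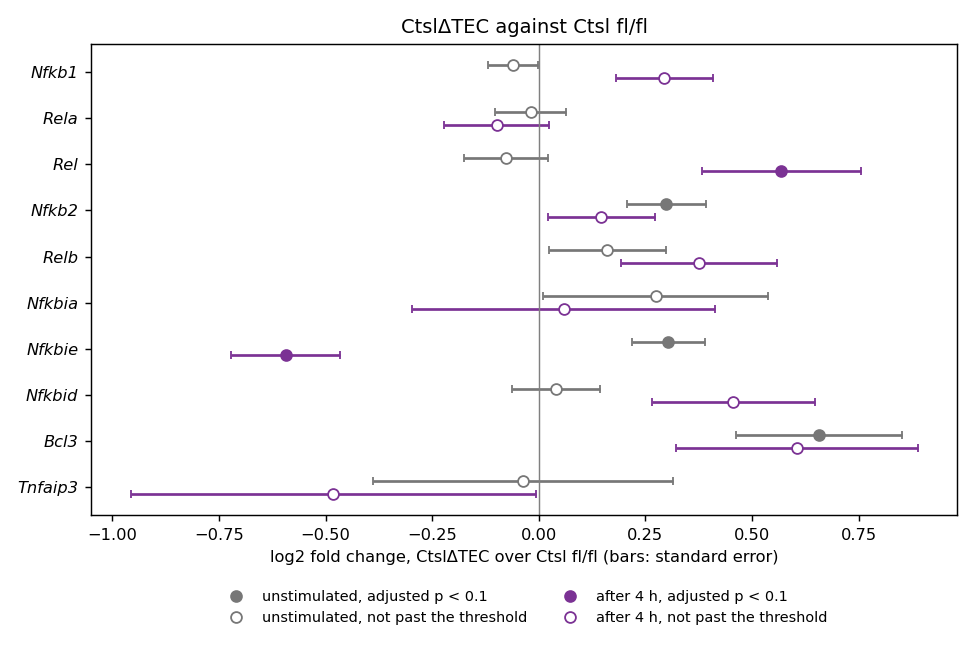
Log2 fold changes of CtslΔTEC over Ctsl fl/fl cells (horizontal axis) for each gene, grey for unstimulated cells and purple after 4 h, with bars of 1 standard error and filled points for an adjusted p under 0.1. Nfkbie is the only gene with filled points on both sides of 0, at 0.30 unstimulated and −0.59 after 4 h.

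The spread of these last genes followed the file date. Tnfaip3 was at 61.6, 57.9, 50.3 and 151 CPM in Ctsl fl/fl mice 1 to 4 and at 139, 64.5, 74.1, 53.2 and 60.4 CPM in CtslΔTEC mice 1 to 5. Nfkbia was at 89.9, 84.8, 75.1 and 147 CPM in the controls and at 186, 80.5, 146, 87.9 and 98.1 CPM in CtslΔTEC mice. In both genes the 3 libraries of the first date, of both genotypes, lay above the 6 of the second, by a ratio of means of 2.09 for Tnfaip3 and 1.86 for Nfkbia. Over all 13152 genes tested at rest, 6.74% had ranges that did not overlap between the dates. Of 10 immediate early genes, listed after the data were seen, 7 did not overlap and were higher on the first date. The others were Egr1 (177 to 429 against 130 to 210 CPM), Btg2, which was 0.922 times as high on the first date, and Atf3, near 0 throughout. Nr4a1, an early gene looked at beside that list, overlapped as well (54.3 to 130 against 32.1 to 55.7 CPM). Of the 7, Fos was at 62.0 to 104 CPM on the first date and 3.06 to 18.1 CPM on the second, and Jun was at 406 to 696 and 2.04 to 44.8 CPM. Nfkbie did not separate by date (18.7 to 22.7 and 14.9 to 22.2 CPM). In the same 3 libraries Tnfaip3-205, a transcript with a retained intron, took 8.85 to 16.3% of the TPM of Tnfaip3, against 3.50 to 4.51% in the other 6. Within the second date, Tnfaip3 and Nfkbia had log2 fold changes between genotypes of 0.07 and 0.09. The part of date in these levels was not tested further.

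**Figure D3:**
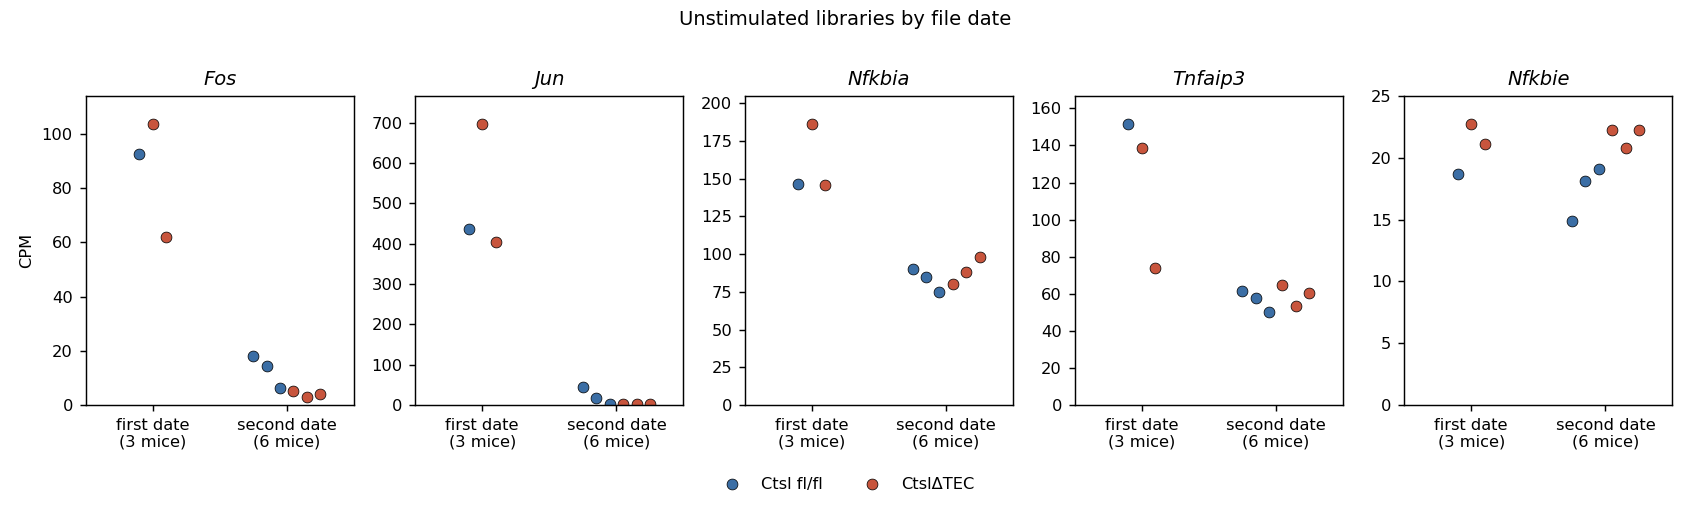
CPM of Fos, Jun, Nfkbia, Tnfaip3 and Nfkbie in the 9 unstimulated libraries by file date, with 1 point per mouse. Fos, Jun, Nfkbia and Tnfaip3 are higher in all 3 libraries of the first date, whereas Nfkbie, at 18.7 to 22.7 CPM on the first date, overlaps the second.

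The third question was how the genes responded to 4 h of antigen and anti-CD28. All 10 rose in both genotypes, where 32.9% of 14241 genes tested were higher after stimulation in Ctsl fl/fl cells and 32.9% in CtslΔTEC cells. The median log2 fold change of the 10 genes was 3.06 in Ctsl fl/fl and 3.01 in CtslΔTEC cells, against 0.01 and −0.06 over all genes. Both responses are set against unstimulated cells that were not cultured.

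The size of the rise differed between the genes. Nfkbid, encoding IκBNS, rose most. It went from 42.7, 44.0, 44.4 and 43.3 CPM in resting Ctsl fl/fl mice to 959 and 1514 CPM after 4 h, 28.4-fold (log2 fold change 4.83, standard error 0.17), and from 37.7 to 56.6 CPM in CtslΔTEC mice to 1553 and 1840 CPM, 37.9-fold (5.24, standard error 0.16). Nfkb2, Relb, Rel and Nfkb1 followed. In Ctsl fl/fl cells the lead of Nfkbid rested on mouse 6. Without that mouse the log2 rise was 4.44 for Nfkbid and 4.55 for Nfkb2. Nfkb2 rose 24.6-fold in Ctsl fl/fl and 22.1-fold in CtslΔTEC cells, Relb 19.9- and 23.1-fold, Rel 18.0- and 28.2-fold and Nfkb1 10.7- and 13.7-fold. Within the 14241 genes, these 5 ranked between 169 and 316 by fold in Ctsl fl/fl cells. Tnfaip3 rose 6.45- and 4.74-fold and Nfkbia 4.32- and 3.73-fold. The resting levels of these 2 genes include the high libraries of the first date. Without that date the log2 rise in Ctsl fl/fl cells went from 2.69 to 3.19 for Tnfaip3 and from 2.11 to 2.36 for Nfkbia. That of Nfkb1 was 3.42 with it and 3.43 without. Rela, Nfkbie and Bcl3 rose least: Rela 2.36- and 2.23-fold, Nfkbie 2.49- and 1.34-fold and Bcl3 1.98- and 1.91-fold. Adjusted p lay between 4.5e-13 and 0.00258 in Ctsl fl/fl and between 1.42e-13 and 0.00252 in CtslΔTEC cells (edgeR). The smallest rises depended on single mice: without Ctsl fl/fl mouse 6 the rise of Bcl3 had an adjusted p of 0.115, and without CtslΔTEC mouse 7 that of Nfkbie had one of 0.107.

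**Figure D4:**
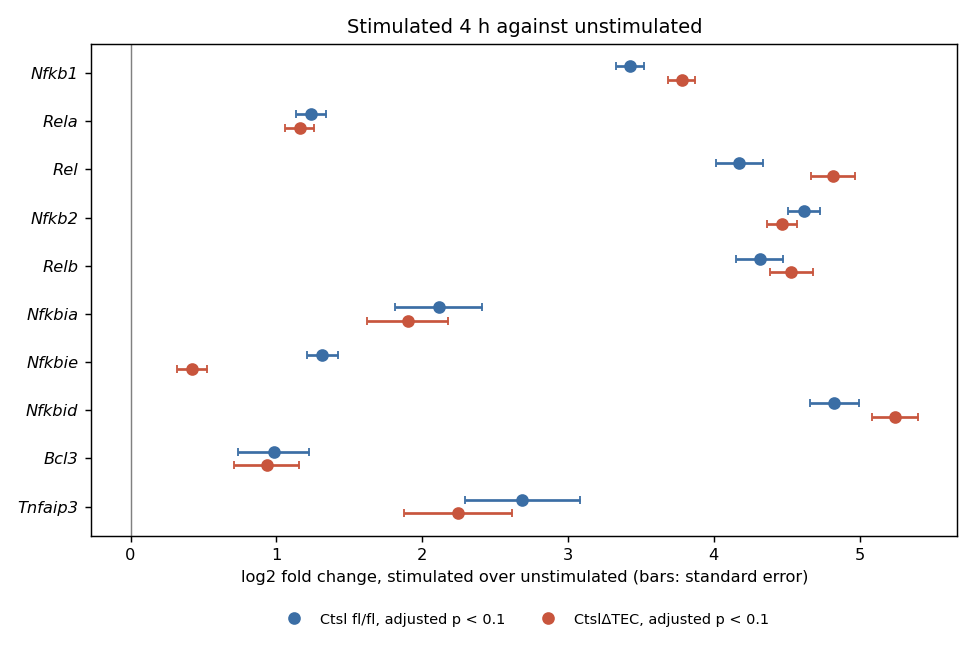
Log2 fold changes of stimulated over unstimulated cells (horizontal axis), blue for Ctsl fl/fl and red for CtslΔTEC mice, with bars of 1 standard error. Every gene passed the threshold in both genotypes, and the points of Nfkbie, at 1.32 and 0.42, lie farthest apart.

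These unequal rises changed the composition of the family. Rela fell from 37.1% of the summed subunit TPM to 9.12% ± 0.399 in stimulated Ctsl fl/fl and 7.29% ± 0.917 in stimulated CtslΔTEC cells (n = 2 each), while its own level rose. The share of Nfkb2 was 6.58% ± 0.153 and 8.01% ± 0.611 at rest and 17.3% ± 1.89 and 15.4% ± 0.133 after stimulation, in Ctsl fl/fl and CtslΔTEC cells. That of Relb went from 7.13% and 7.87% to 13.2% and 13.6%, and that of Rel from 5.47% and 5.19% to 10.1% and 12.3%. Nfkb1 stayed the largest, at 50.3% and 51.4%. The summed subunit TPM was 203 ± 7.93 in resting Ctsl fl/fl cells and 1514 and 2121 in the stimulated ones. Among the other 5 genes, Nfkbia made up 61.3% ± 2.38 of the summed TPM in resting Ctsl fl/fl cells and Nfkbid 18.8% ± 4.67, and after 4 h Nfkbid took 51.6 and 62.2% and Nfkbia 34.6 and 26.0%. By TPM, Nfkb1 (916 ± 233) and Nfkbid (877 ± 348) led in stimulated Ctsl fl/fl cells and were level within their spread, as they were in CtslΔTEC cells (1151 ± 84.6 and 1192 ± 142). Nfkbie (23.0 ± 1.01 and 14.9 ± 1.18) and Bcl3 (6.63 ± 1.50 and 9.80 ± 2.23) were the lowest after stimulation.

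**Figure D5:**
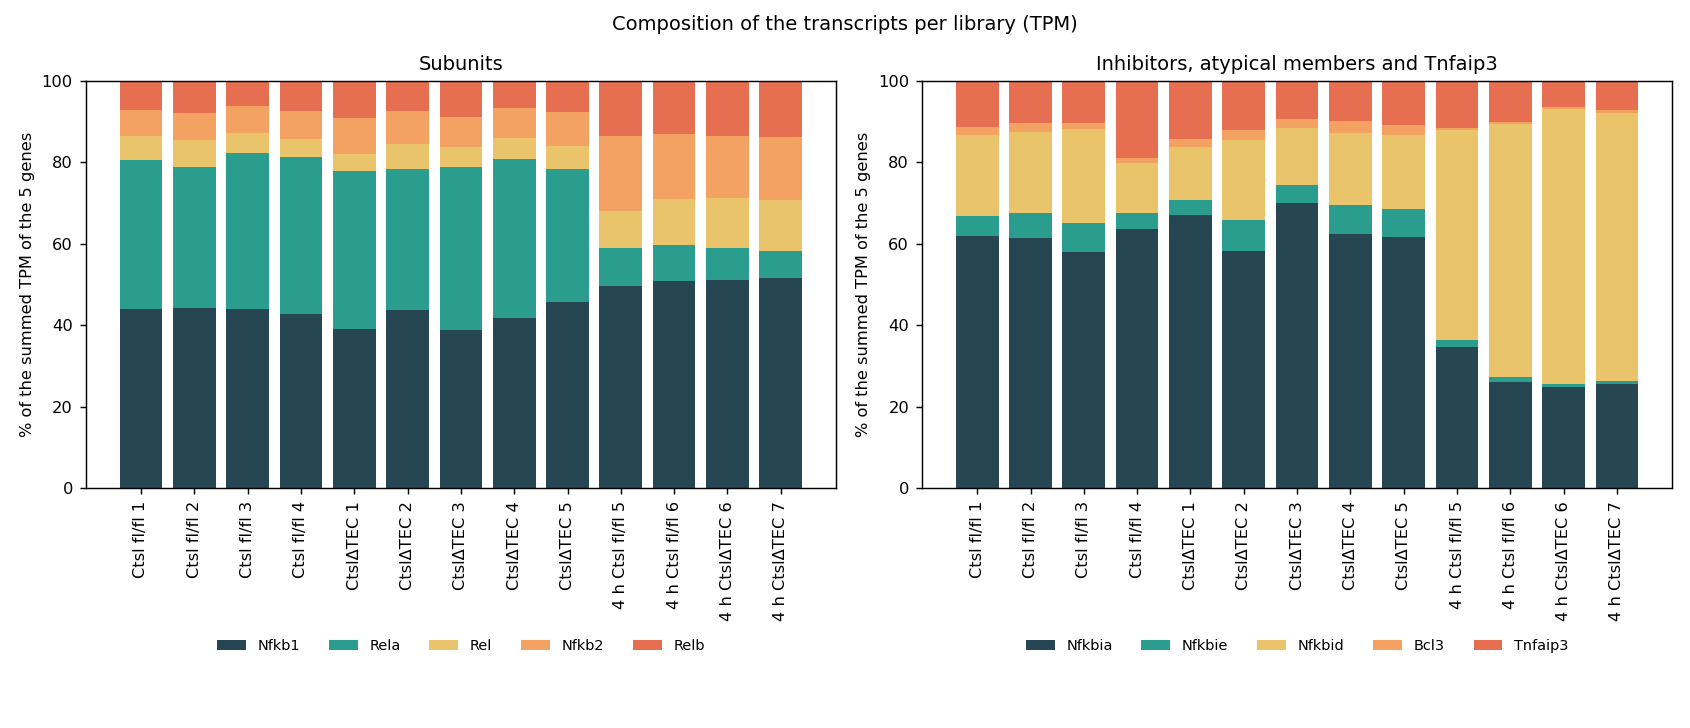
Share of the summed TPM in each of the 13 libraries, for the 5 subunits (left) and the other 5 genes (right), stacked to 100% on the vertical axis. The Rela share is 32.7 to 40.1% at rest and 6.65 to 9.41% after 4 h, and Nfkbid replaces Nfkbia as the largest part of the right panel.

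Rises were also unequal among the transcripts of a gene, here given as shares of the TPM of that gene and without a test. Nfkb2-201, which starts 7 bases from the RefSeq start whose promoter holds the pair of κB matches named above, had 43.9% ± 5.45 of Nfkb2 in resting Ctsl fl/fl and 56.2% ± 2.85 in resting CtslΔTEC cells, and 72.7 and 71.8% after stimulation. Nfkb2-202, from the next start, went from 40.9 and 29.3% to 16.1 and 16.2%. For Nfkbid, transcript 203 went from 47.9 and 47.0% to 85.7 and 83.7%. It starts at the first RefSeq start, whose promoter had no match to either motif, and Nfkbid-202, which starts at the second, made up 4.19% and 4.22% after stimulation. For Tnfaip3 the shares at rest differed by file date. Tnfaip3-201, from the start shown above, had 85.6 to 92.0% in the 6 resting libraries of the second date, 49.5, 55.9 and 63.3% in the 3 of the first, and 49.9 to 55.0% after 4 h, so that the first date overlapped the stimulated libraries. Tnfaip3-202, from a start without a match, had 0 to 4.88%, 10.9 to 17.3% and 16.0 to 26.6% in the same libraries. The retained-intron transcript Nfkbia-202 had 27.1% and 28.0% of Nfkbia at rest and 18.2 and 15.1% after stimulation. That of Nfkbie, Nfkbie-202, varied widely after stimulation, at 13.4 and 27.3% in Ctsl fl/fl and 20.3 and 38.9% in CtslΔTEC mice. Summed retained-intron transcripts rose in Nfkb1, from 24.5 and 25.6% to 30.7 and 35.1% in Ctsl fl/fl and CtslΔTEC cells. They also rose in Relb, from 8.11 and 10.3% to 15.1 and 17.5%, and fell in Nfkbid, from 8.43 and 8.78% to 3.20 and 3.86%. Such shares are estimates that divide reads between overlapping transcripts.

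The last question was whether stimulated cells differed by genotype. Nfkbie was lower and Rel higher in CtslΔTEC cells, and 8 of the 10 genes did not pass. That is 2 of 10, where 13.3% of 14241 genes passed in either direction. The median log2 fold change was 0.22 for the 10 genes and −0.05 for all genes tested. Only 2 mice stood on each side, and the spread was estimated over all 4 groups.

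Nfkbie was at 44.5 and 43.8 CPM in Ctsl fl/fl mice 5 and 6 and at 26.9 and 31.5 CPM in CtslΔTEC mice 6 and 7, on 336, 1128, 298 and 498 counts. The controls were nearly equal and both lay above both CtslΔTEC mice, a difference of −0.59 ± 0.13 in log2 (edgeR, adjusted p = 0.00964). Without CtslΔTEC mouse 6 it was −0.49, with an adjusted p of 0.109. The direction was the reverse of that at rest, and the interaction of genotype and stimulation was −0.90 ± 0.15 in log2 (edgeR, adjusted p = 0.00769). Nfkbie was the only 1 of the 10 genes to pass in the interaction, where 6.01% of the 14241 genes passed in either direction. The call held in each of 24 alternatives, with values between −1.06 and −0.79 and adjusted p between 9.78e-05 and 0.0624. Counting only protein-coding transcripts gave −1.06 (adjusted p = 0.0183), and in that count the rise of Nfkbie in CtslΔTEC cells, 0.11 on the log2 scale, did not pass (adjusted p = 0.52). With the Y-linked level as a covariate, chosen after the data were seen, the interaction was −0.82 (adjusted p = 0.0262). Stimulated Ctsl fl/fl and CtslΔTEC mice included 1 with Y-linked transcripts each.

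Rel, which encodes c-REL, was at 876 and 1381 CPM in stimulated Ctsl fl/fl mice 5 and 6 and at 1592 and 1757 CPM in CtslΔTEC mice 6 and 7. Groups did not overlap, but the controls were far apart, and the lower of them, mouse 5, is the shallowest library. The difference was 0.57 ± 0.19 in log2 (edgeR, adjusted p = 0.0737). It was 0.27 without Ctsl fl/fl mouse 5 (adjusted p = 0.533) and 0.93 without mouse 6 (adjusted p = 0.00643), so that the size of the difference rested on these mice, and the call was also lost without either CtslΔTEC mouse. The interaction for Rel was 0.65 (standard error 0.22) and did not pass (adjusted p = 0.149).

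Ctsl fl/fl mouse 5 was likewise the lowest of the 4 stimulated mice for Nfkb1 (1958 CPM against 2475, 2590 and 2845), Nfkbid (959 against 1514, 1553 and 1840) and Relb (363 against 439, 494 and 548). None of these 3 passed, with log2 fold changes of 0.29 for Nfkb1 (adjusted p = 0.133), 0.46 for Nfkbid (adjusted p = 0.166) and 0.38 for Relb (adjusted p = 0.243, all edgeR). Without mouse 5 they were 0.13, 0.16 and 0.24. Bcl3 was at 5.03 and 7.03 CPM in Ctsl fl/fl and 8.76 and 9.93 CPM in CtslΔTEC mice, on 38 to 181 counts, a difference of 0.61 ± 0.28 in log2 (edgeR, adjusted p = 0.224). This was close to its value at rest, and the interaction was −0.05 (standard error 0.34). Tnfaip3 was at 501 and 535 against 315 and 426 CPM, with a log2 fold change of −0.48 and a standard error of 0.47 that includes the spread by date at rest. Nfkbia, Rela and Nfkb2 had values of 0.06, −0.10 and 0.15, with standard errors of 0.35, 0.12 and 0.13. Double-positive thymocyte markers again differed between the genotypes after 4 h (26.7 to 31.6 CPM in Ctsl fl/fl and 73.8 to 79.3 CPM in CtslΔTEC mice). Myeloid markers did too (10.7 to 24.6 and 7.22 to 8.41 CPM). Mature CD4 T cell markers (6082 to 6588 and 6680 to 6854 CPM), regulatory T cell markers (704 to 759 and 793 to 832 CPM) and epithelial markers (11.3 to 13.4 and 13.7 to 15.8 CPM) also did not overlap, nor did the retained-intron share (5.99 and 7.63% against 7.94 and 8.55%). Calls within the mature CD4 and regulatory T cell lists did not follow the sums. Of 12 mature CD4 T cell markers 0 passed as higher and 3 as lower in CtslΔTEC mice. Of 4 regulatory T cell markers it was 0 and 1, where 2.77% and 10.6% of all genes passed. With 2 mice a side, ranges without overlap arise easily. The part of these lists and of the retained-intron share in these values was not tested.

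Genes around the family were taken from lists of upstream kinases and adaptors, the linear ubiquitin ligase, the alternative arm, other inhibitors, partners of A20 with other brakes, and NF-κB target genes. At rest, 6.42% of all genes tested passed as higher and 8.36% as lower in CtslΔTEC cells (844 and 1099 genes, or 1163 and 885 with library totals in place of TMM). Of 12 upstream genes 2 passed, where 14.8% of all genes did in either direction, and both were lower, among them Malt1, which encodes a paracaspase, by −0.40 (standard error 0.08) on the log2 scale. That call was lost in 2 of 23 alternatives (edgeR, adjusted p up to 0.216). The median of the list was −0.02. Malt1 was at 151 to 195 CPM in the controls and 118 to 141 CPM in CtslΔTEC mice, without overlap. Of 22 target genes tested, 5 were higher and 3 lower, with a median of 0.19, to be read against the same shares of all genes. The smallest p were those of Il2ra, encoding the IL-2 receptor α chain, which was 4.00-fold higher (2.01 to 2.61 CPM in the controls, 6.52 to 12.9 CPM in CtslΔTEC mice), of Icam1, an adhesion molecule (1.74-fold), and of Lta, encoding lymphotoxin α (1.67-fold). In the alternative arm, Birc3, encoding cIAP2, was higher by 0.19 and Traf3, which restrains that arm, lower by −0.19, out of 5 genes with a median of −0.01, and both calls were lost in most alternatives. The 3 genes of the linear ubiquitin ligase, the 2 other inhibitors and the 10 brakes tested had medians of −0.02, 0.04 and 0.00. In these 3 lists 0 genes passed in edgeR, 0 in DESeq2, and 0 had an unadjusted p under 0.05.

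On stimulation, these lists moved in both directions in either genotype, as did all genes, of which 32.9% rose in each and 34.8% fell in Ctsl fl/fl and 38.2% in CtslΔTEC cells. In Ctsl fl/fl cells 5 upstream genes rose and 4 fell (of 12, median 0.13): Malt1 rose by 1.52 on the log2 scale. Prkcq, encoding PKCθ, was 0.466 times its resting level. In CtslΔTEC cells 6 rose and 5 fell (median 0.20), with Malt1 at 2.06 and Ikbkg, the regulatory subunit of the IκB kinase, at −1.09. Of the linear ubiquitin ligase, Sharpin fell in both genotypes (by 0.53 and 0.64) and Rbck1 in CtslΔTEC cells (by 0.31), with medians of −0.14 and −0.31. In the alternative arm 4 of 5 genes rose and 1 fell in both genotypes (medians 0.55 and 0.76), led by Birc3 (2.11 and 2.28) and Traf3 (1.32 and 1.66). The other inhibitors Nfkbib, encoding IκBβ, and Nfkbiz, encoding IκBζ, rose 4.90- and 4.00-fold in Ctsl fl/fl and 4.88- and 4.70-fold in CtslΔTEC cells. Among the 11 brakes, 5 rose and 4 fell in Ctsl fl/fl cells and 5 rose and 5 fell in CtslΔTEC cells (medians 0.17 and −0.03). Tnip2, encoding an A20-binding protein, rose by 2.35 and 2.93 and Zc3h12a, encoding the RNase regnase-1, by 2.92 and 3.03, while the deubiquitinase gene Cyld fell by 1.17 and 1.27. Of 24 target genes, 20 rose in each genotype (medians 3.73 and 3.83), among them Il2ra by 8.25 in Ctsl fl/fl and the TNF receptor family gene Tnfrsf9 by 10.36 in CtslΔTEC cells.

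In stimulated cells, 1 of 24 target genes was higher and 6 lower in CtslΔTEC than in Ctsl fl/fl mice (median 0.04), where 2.77% of all genes tested were higher and 10.6% lower, so that calls leaned the same way over all genes. That tally of 395 higher and 1503 lower became 112 and 854 without Ctsl fl/fl mouse 5, 150 and 795 without CtslΔTEC mouse 6, 823 and 1512 without the first file date and 646 and 1119 with at least 10 counts required in every library. Il2, the T cell growth factor gene, was at 54.4 and 50.7 CPM in Ctsl fl/fl and at 3.07 and 5.75 CPM in CtslΔTEC mice, a difference of −3.55 ± 0.34 in log2 (edgeR, adjusted p = 5.86e-05). Rel was higher in the same CtslΔTEC mice, by a difference whose size rested on single mice, as given above. Any relation between the 2 genes was not tested. Il7r, encoding the IL-7 receptor α chain, and Tnfrsf4, encoding OX40, were lower by −1.72 and −0.94. The median of the 12 upstream genes was 0.02. Of the alternative arm Birc3 was higher, by 0.36 (median of 5 genes 0.15). Tnip2 was higher, at 156 and 166 CPM against 104 and 120 CPM, by 0.53 (median of the 11 brakes −0.10), and it also passed in the interaction, with 0.57 (adjusted p = 0.0309), where the median of the brakes was −0.10. In the interaction 1.13% of all genes passed as positive and 4.88% as negative (161 and 695 genes, or 309 and 741 in DESeq2). Of 24 target genes 3 passed, negative like most calls (median −0.45): Il2ra at −1.83, Tnfrsf4 at −1.31 and Bcl2a1d, a BCL2 family gene with near-identical copies, at −0.96. The interaction call was lost in 7 of 24 alternatives for Bcl2a1d (adjusted p up to 0.587, value as small as −0.50 after thinning to the smallest total), in 2 for Tnfrsf4 (up to 0.121) and in 3 for Tnip2 (up to 0.157). In stimulated cells that of Birc3 was lost in 5 of 25 (up to 0.465) and that of Tnfrsf4 in 2 (up to 0.145), all in edgeR. None of the 12 upstream genes passed in the interaction in edgeR, where 4 had an unadjusted p under 0.05 and DESeq2 called 2.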

How the data were processed

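RNA of 13 libraries, 1 mouse each, had been quantified by the authors with kallisto 0.48 against Ensembl 106. The deposited files hold estimated counts per transcript, and TPM, which the authors' kallisto run scales for transcript length and library size. The labels give polyA RNA and the study's methods ribosomal RNA depletion. Here both values were summed by gene with GENCODE M21 names, which 99.1% of transcripts matched (the rest held at most 0.461% of counts), and summed counts were rounded. Groups came from the labels. Genes were filtered with filterByExpr and tested with edgeR 4.0.16 (TMM, quasi-likelihood, Benjamini-Hochberg, adjusted p under 0.1; R 4.3.3), on the 9 unstimulated libraries for genotype at rest and otherwise as contrasts of 4 groups over 13 libraries. CPM values are scaled over all 13. Values after ± in log2 differences are standard errors and otherwise SDs. The exact permutation test used log2(CPM + 0.5), two-sided. DESeq2 1.42.0, other scalings and filters, covariates and left-out mice were alternatives. The self-test on simulated counts preceded the fits. No column was left unused for want of a sample. All 10 genes were named, and up to 3 called genes of smallest p per pathway list and comparison. These genes and lists were chosen with earlier results of these data known. Some genes of these lists are not reported here.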

Additional observations from a re-analysis of the deposited data

Results flagged for a closer look

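Bcl3 in unstimulated CtslΔTEC mouse 1 was at 7.358 CPM, far above the other 4 mice of its group (3.84 to 4.62 CPM). On the log2(CPM + 0.5) scale, the gap to the nearest mouse was 0.722 of the range of the group. Of 20 groups examined in this way 1 held such a sample, and chance alone gives about 1. The mouse belongs to the first file date, and within the second date the log2 difference between genotypes in Bcl3 was 0.46 (adjusted p = 0.113, edgeR).

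Nfkbie responded differently to stimulation in the 2 genotypes, with an interaction of −0.895 on the log2 scale (adjusted p = 0.00769, edgeR). It rose 2.49-fold in Ctsl fl/fl cells and 1.34-fold in CtslΔTEC cells. Without CtslΔTEC mouse 6 the interaction was −0.79 (adjusted p = 0.0624).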

How the results depend on the processing

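Of the 10 genes 3 passed between genotypes at rest. With the mouse number as a replicate block 0 passed, as with the Y-linked level or the retained-intron share as a covariate, and 1 passed at an adjusted p under 0.05. Leaving out 1 mouse at a time gave 1 to 3. Mouse numbers are those of the sample titles. The numbers in the file names differ for unstimulated CtslΔTEC mouse 2 and all stimulated mice. Deviations of mice with the same title number correlated with r = −0.21, 0.44, −0.12 and −0.21 for numbers 1 to 4. Only the mice numbered 2 shared a file date. In the others date and pairing are mixed, so these values cannot tell whether the numbers pair the samples. In stimulated cells 2 passed, against 4 with DESeq2, 1 with the 4 stimulated libraries alone, 6 without the first file date (added after seeing the data), 1 at an adjusted p under 0.05 and 0 to 4 with 1 mouse left out. In the interaction 1 passed, against 3 with DESeq2, 2 without the low-count filter, 2 with the Y-linked covariate (added after seeing the data) and 1 to 4 with 1 mouse left out. On stimulation all 10 passed, or 9 without Ctsl fl/fl mouse 6, without CtslΔTEC mouse 7 or, in CtslΔTEC cells, with protein-coding transcripts only. Where an arm was left with 1 mouse, it was assumed to vary like the other groups. Calls over all genes moved too. At rest 1943 of 13152 genes passed, against 1051 with the replicate block, 429 with the Y-linked level and 689 with the retained-intron share. In stimulated cells 1898 of 14241 passed, against 2076 with DESeq2. It was 1127 of 11763 with the 4 stimulated libraries alone and 2335 of 13990 without the first date. In the interaction 856 passed, against 1050 with DESeq2, 674 with the Y-linked covariate and 859 of 22330 without the low-count filter. The cause of these shifts was not tested.

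Signs reversed only in differences that did not pass, given in log2. At rest Rel was 0.0225 with the Y-linked covariate (−0.15 to 0.0082 with 1 mouse left out), Rela 0.0262 with library totals and 0.0059 with the replicate block (−0.0794 to 0.0124), and Nfkbid −0.10 within the second date and −0.0428 with the retained-intron covariate (−0.059 to 0.098). Tnfaip3 at rest was 0.0109 with library totals, 0.0215 with protein-coding transcripts, 0.12 with the replicate block, 0.0684 within the second date and 0.74 with the Y-linked covariate (−0.35 to 0.47). In stimulated cells Nfkbia was −0.0166 with a length offset (−0.12 to 0.20). In the interaction Rela was 0.0093 after thinning and 0.0528 without the first date (−0.17 to 0.0183), Nfkbia 0.0221 without the first date (−0.46 to 0.0065), and Bcl3 0.0283 with the Y-linked covariate, 0.0611 after thinning and 0.20 without the first date (−0.25 to 0.24). Of all single-gene values for the 10 genes, 1115 kept direction and call, 30 lost a call, 21 gained one and 34 reversed. The stimulated comparison had totals down to 8085463 counts and 2 mice a side.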
